A study of Macaca mulatta with 10 samples.

Results

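Genes of fatty acid oxidation were examined in liver of brain-dead rhesus macaques (Macaca mulatta). The set held 47 genes: 37 enzymes and carriers of mitochondrial and peroxisomal fatty acid oxidation and ketone body metabolism, and 10 peroxins, the proteins that build and divide peroxisomes. They were chosen by name, and every probe set whose platform annotation gave 1 symbol from that list was taken, with no threshold on signal. This gave 54 of the array's 52865 probe sets, for 30 of the 47 genes. The other 17 had no probe set paired with their symbol alone and are not analysed here (ACSL3, ACSL4, CPT1B, CPT2, ACADSB, ACAD11, HADH, ECHS1, ECI2, ACAA2, ETFA, ACAT1, ACOX2, ACAA1, PEX3, PEX14 and PEX19). The entry enzymes were therefore covered by CPT1A without CPT2, and ketone body metabolism by BDH1 alone.

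Liver RNA of 5 brain-dead donors was compared with that of 5 living-donor controls, 1 oligonucleotide array per animal. Brain death had been induced by slow inflation of a balloon catheter in the extradural space and lasted 6 h per the sample labels or 5 h per the series' design text. The brain-dead animals received Ringer's fluid, with vasopressin, dopamine or both, and were 2 females and 3 males aged 7, 7, 7 and 18 years, with 1 age not given. The controls, 3 females and 2 males aged 4, 10, 10, 16 and 20 years, were anaesthetised and ventilated for 1 h. Drugs and time under ventilation cannot be told apart from brain death itself. All livers were flushed with preservation solution in place before removal.

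Long-chain fatty acids are bound to coenzyme A by acyl-CoA synthetases, passed into mitochondria on carnitine by the CPT enzymes, and shortened there in rounds of dehydrogenation, hydration, dehydrogenation and thiolysis. Peroxisomes run a parallel pathway for very long-chain, branched and dicarboxylic acids and hand shortened chains to mitochondria. In liver the product acetyl-CoA also feeds ketone bodies during fasting, and the nuclear receptor PPARA is a main activator of both pathways.

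Of the 30 genes measured, 5 were lower in brain-dead animals and none was higher. The test was limma, a linear model fitted across all 26653 probe sets kept, at a p of 0.05 after Benjamini-Hochberg adjustment. The 5 were EHHADH, CROT and PEX11A of the peroxisome, the mitochondrial dehydrogenase ACADL and the synthetase ACSL1. Of all 9835 genes measured, 3.87% were lower and 2.90% higher by the same rule, and of all probe sets tested 6.10% passed in either direction. At an unadjusted p under 0.05, 14 of the 30 were lower and 1 higher, against 1298 lower and 1170 higher of all 9835 genes. The median log2 change, brain-dead minus control, was -0.62 over the 30 genes and -0.01 over all genes, and 24 of the 30 changes lay below 0, where 50.5% of all genes did. The count of 5 moved with single arrays, from 2 without control animal 3 or brain-dead animal 5 to 8 without control animal 4, and was 3 without control animal 2 or brain-dead animal 4. It was 1, ACSL1, without both animals numbered 1.

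**Figure D1:**
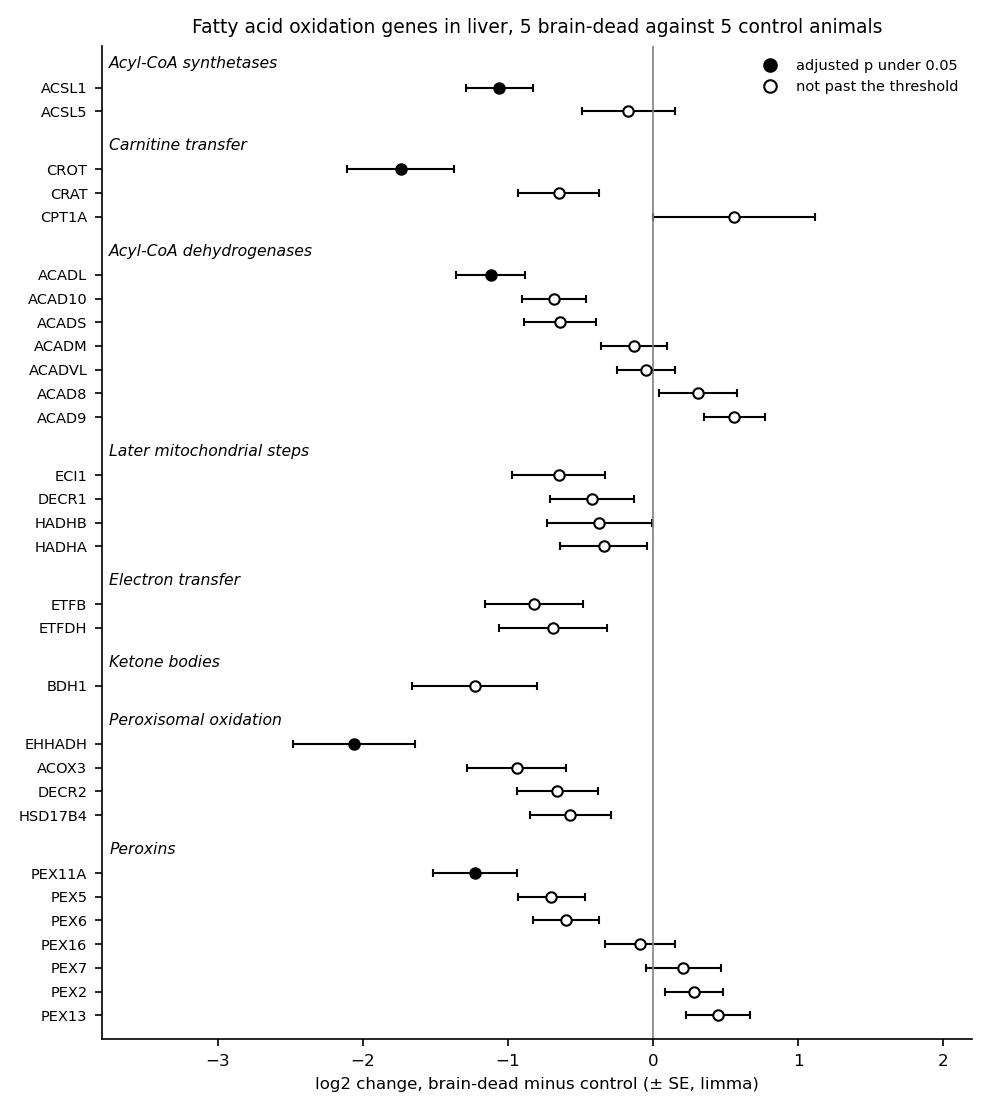
Log2 change in signal, brain-dead minus control, with its standard error from limma (5 animals per group) for the 30 measured genes, grouped by role. Filled points passed an adjusted p of 0.05: EHHADH (-2.06), CROT (-1.74), PEX11A (-1.23), ACADL (-1.12) and ACSL1 (-1.06), while CPT1A, ACAD8, ACAD9, PEX2, PEX7 and PEX13 lie above 0 without passing.

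Of the 5 falls, the largest was that of a gene of peroxisomal oxidation. EHHADH, the bifunctional enzyme that carries out hydration and the second dehydrogenation in peroxisomes, had signals of 2629, 5155, 2332, 1209 and 722 in brain-dead animals 1 to 5, against 10599, 7438, 7678, 9007 and 6418 in control animals 1 to 5. Every brain-dead animal lay below every control, and brain-dead animals 4 and 5 were lowest. The log2 change was -2.06 ± 0.42 (SE, n = 5 per group, limma, adjusted p = 0.0167), which is 4.18-fold lower. Brain-dead animals spread over 7.14-fold from lowest to highest, and controls over 1.65-fold. The other 3 peroxisomal enzymes measured had lower means in brain-dead animals without passing the test. ACOX3, an acyl-CoA oxidase of branched chains, had a change of -0.94 ± 0.34 (adjusted p = 0.118), and its second probe set one of -0.61. HSD17B4, the second bifunctional enzyme, averaged 16411 ± 5441 in brain-dead animals and 24552 ± 8817 in controls (SD), a change of -0.57 ± 0.28 (adjusted p = 0.231). DECR2, the peroxisomal dienoyl-CoA reductase, had a change of -0.66 ± 0.28 (adjusted p = 0.172). EHHADH kept its call under every alternative tried but the removal of both animals numbered 1 (limma, adjusted p = 0.0544, range over its alternatives 0.00531 to 0.0544).

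The export of shortened chains from peroxisomes depends on CROT, carnitine octanoyltransferase. Its signal was 880, 1217, 740, 578 and 521 in brain-dead animals 1 to 5, against 4713, 3008, 3559, 1086 and 1802 in control animals 1 to 5. The groups overlapped at one point, where brain-dead animal 2 lay above control animal 4. CROT fell by 1.74 ± 0.37 on the log2 scale, or 3.34-fold (limma, adjusted p = 0.0200). Its call ended without control animals 2 and 3, brain-dead animal 5 and both animals numbered 1 (limma, adjusted p = 0.0527, 0.0511, 0.0539 and 0.0625, range 0.00506 to 0.0625). CRAT, carnitine acetyltransferase of both organelles, averaged 5232 ± 1645 in brain-dead and 8030 ± 2150 in control animals and did not pass (-0.65 ± 0.28, adjusted p = 0.188). A second CRAT probe set had a change of 0.26.

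Among the 7 peroxins measured, 1 of them fell. PEX11A, which acts in the elongation and division of peroxisomes, had signals of 182, 221, 258, 157 and 234 in brain-dead animals 1 to 5, against 532, 779, 558, 437 and 271 in controls 1 to 5. The groups did not overlap, though control animal 5 lay close to brain-dead animal 3. The change was -1.23 ± 0.29 (limma, adjusted p = 0.0281), and that of a second probe set was -1.46 ± 0.34 (adjusted p = 0.0265). Groups of the second probe set overlapped, with brain-dead animal 5 (259) above control animal 5 (213). It lay above the array median in every control but in brain-dead animal 5 alone, so the filter kept it through the controls. Even by its brighter probe set, PEX11A is dim: it lay above the array median, here 175 to 227, on 3 of the 5 brain-dead arrays. The other 29 genes did so on all 10 arrays. Its call ended without control animals 1, 2 and 3 (limma, adjusted p = 0.0628, 0.0755 and 0.0693) and without brain-dead animals 4 and 5 (0.0650 and 0.0547). The call was also lost with no filter (0.0550), in the model of sex and age (0.0502) and without both animals numbered 1 (0.0969, range over its alternatives 0.0143 to 0.0969).

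The other 6 peroxins did not pass. PEX5, the receptor that imports enzymes bearing the common C-terminal signal, averaged 2036 ± 353 in brain-dead and 3343 ± 789 in control animals (-0.70 ± 0.23, adjusted p = 0.0865). PEX6, an ATPase that recycles PEX5, had a change of -0.60 ± 0.23 (adjusted p = 0.135). Both passed without control animal 4 (limma, adjusted p = 0.0400 for each, ranges 0.0400 to 0.190 and 0.0400 to 0.253). PEX7, the import receptor of the other signal, had a change of 0.21 ± 0.26, and PEX16, which inserts membrane proteins, one of -0.09 ± 0.24. PEX2, a ubiquitin ligase subunit of the import machinery, and PEX13 of the docking complex had changes of 0.28 ± 0.20 and 0.45 ± 0.22 (adjusted p = 0.429 and 0.239).

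**Figure D2:**
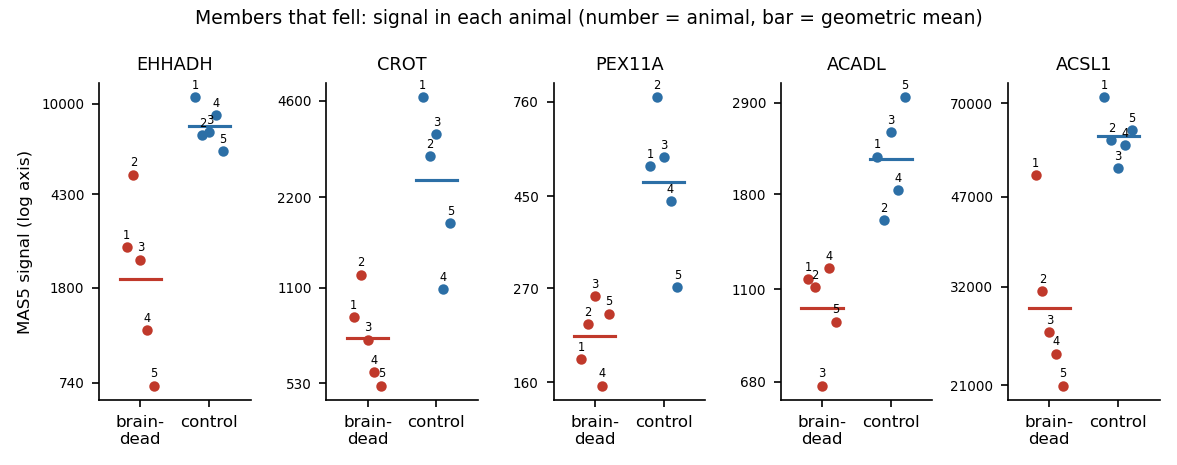
MAS5 signal on log axes in each of the 5 brain-dead and 5 control animals for the 5 genes that fell, with animals numbered and a bar at the geometric mean. Brain-dead animal 5 is lowest for EHHADH (722), CROT (521) and ACSL1. At the probe sets drawn, the groups overlap for CROT but not for the other 4 genes.

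The fatty acid is first activated. ACSL1, the main long-chain acyl-CoA synthetase of liver, had signals of 51493, 31358, 26366, 24030 and 20981 in brain-dead animals 1 to 5, against 71738, 59790, 53028, 58539 and 62448 in control animals. Every brain-dead animal lay below every control, with brain-dead animal 1 close to the lowest control. In a second probe set the groups overlapped, with brain-dead animal 1 (54357) above control animals 3, 4 and 5 (49735, 42288 and 51653). ACSL1 fell by 1.06 ± 0.23 on the log2 scale (limma, adjusted p = 0.0200), and its second probe set fell by 1.30 ± 0.32 (adjusted p = 0.0310). Its call ended without brain-dead animals 4 and 5 (limma, adjusted p = 0.0502 and 0.0508), with no filter (0.0572) and in the model of sex and age (0.0607, range over its alternatives 0.00359 to 0.0607). ACSL5, a synthetase of mitochondria and endoplasmic reticulum, had 3 probe sets with changes from -0.17 to -0.08, none past the threshold (-0.17 ± 0.32 for the brightest, adjusted p = 0.793).

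CPT1A, the malonyl-CoA-sensitive enzyme that sets the rate of entry into mitochondria, did not pass. Its signal was 34169, 18450, 39738, 18183 and 28562 in brain-dead animals 1 to 5, against 34156, 32765, 5965, 47937 and 5921 in control animals 1 to 5. The groups overlapped throughout, and control animals 3 and 5 were the lowest of all 10. The control signals spread over 8.10-fold, the widest of the 30 genes in that group, and the brain-dead ones over 2.19-fold. The change was 0.56 ± 0.56, with a 95% interval of -0.65 to 1.76, which takes in both falls and rises (limma, adjusted p = 0.591). A second probe set, also lowest in control animals 3 and 5 among controls, had a change of 0.34 ± 0.72.

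Of 7 acyl-CoA dehydrogenases, which take the first step of each mitochondrial round, 1 fell. ACADL, the long-chain acyl-CoA dehydrogenase, had signals of 1157, 1111, 666, 1226 and 929 in brain-dead animals 1 to 5, against 2189, 1573, 2488, 1840 and 2981 in controls 1 to 5, with no overlap. The change was -1.12 ± 0.24 (limma, adjusted p = 0.0200). A second probe set gave -0.54 ± 0.25 and did not pass (adjusted p = 0.211), and one more lay below the filter, at 11.7 to 141 in brain-dead and 189 to 428 in control animals. The call ended without control animal 3 (limma, adjusted p = 0.0520), in the model of sex and age (0.0541) and without both animals numbered 1 (0.0545, range 0.0122 to 0.0545).

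The medium-chain and very long-chain enzymes did not pass. ACADM, the medium-chain one, had signals of 27392, 26636, 28539, 26391 and 19980 in brain-dead animals 1 to 5, against 30065, 26135, 26571, 44818 and 18452 in controls 1 to 5. Only control animal 4 stood well above the other arrays, and the change was -0.13 ± 0.23 with a 95% interval of -0.62 to 0.36 (limma, adjusted p = 0.772). A dimmer ACADM probe set had a change of -0.51 ± 0.34 with an interval of -1.24 to 0.23 (limma, adjusted p = 0.397). ACADVL, which acts at the inner membrane, averaged 24562 ± 4913 in brain-dead animals and 25401 ± 4912 in controls (SD). Its change of -0.05 ± 0.20 had a 95% interval of -0.49 to 0.39, and its sign turned with quantile normalization and with centring on the median. The short-chain enzyme ACADS averaged 3840 ± 1180 in brain-dead and 5858 ± 1227 in control animals, a change of -0.64 ± 0.25 that did not pass (adjusted p = 0.140).

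The remaining 3 dehydrogenases had changes on both sides of 0, none past the threshold. ACAD10 had a change of -0.68 ± 0.22 (adjusted p = 0.0837) although its groups did not overlap, at 774 to 1149 in brain-dead and 1187 to 2164 in control animals. In all, groups did not overlap for 5 of the 30 genes, all lower in brain-dead animals, where 4.15% of all genes were lower and 3.65% higher in that way. ACAD9, which also helps to assemble respiratory complex I, had the highest change of the enzymes beside CPT1A, at 0.56 ± 0.21 (adjusted p = 0.124). ACAD8, which acts in valine breakdown, had a change of 0.31 ± 0.27.

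None of the 4 later mitochondrial enzymes passed in limma, and 0 had an unadjusted p under 0.05. HADHA, the alpha subunit of the trifunctional protein, had signals of 9429, 4336, 6406, 5143 and 5940 in brain-dead animals 1 to 5, against 11848, 8792, 5302, 10399 and 4553 in control animals. HADHB, the thiolase subunit, had 16897, 6298, 13002, 8640 and 8074 in brain-dead animals, against 13655, 12705, 10657, 27791 and 6672 in controls. The groups overlapped for both subunits, with brain-dead animal 2 lowest and control animal 5 next to it in each. Changes were -0.34 ± 0.30 for HADHA and -0.37 ± 0.36 for HADHB (limma, adjusted p = 0.531 and 0.580). A second HADHA probe set had a change of 0.14, and the HADHB probe set, by its name suffix, may match several transcripts. ECI1 and DECR1, which rearrange double bonds of unsaturated chains, had changes of -0.65 ± 0.32 and -0.42 ± 0.29 (adjusted p = 0.238 and 0.422).

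The electron transfer flavoprotein takes electrons from the acyl-CoA dehydrogenases, and they pass on to ubiquinone. ETFB, its beta subunit, averaged 11204 ± 4179 in brain-dead and 19888 ± 8357 in control animals, a change of -0.82 ± 0.34 (limma, adjusted p = 0.161). ETFDH, the ubiquinone oxidoreductase, had signals of 6334, 2378, 5004, 5050 and 2394 in brain-dead animals 1 to 5, against 6957, 7935, 4206, 11999 and 3601 in controls. Its groups overlapped, and the change of -0.69 ± 0.37 did not pass (adjusted p = 0.281).

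BDH1, the mitochondrial enzyme that interconverts acetoacetate and 3-hydroxybutyrate, had signals of 5744, 5572, 7769, 2905 and 1289 in brain-dead animals 1 to 5, against 7668, 14276, 8302, 11877 and 6123 in controls 1 to 5. Brain-dead animals 4 and 5 lay far below the rest, while brain-dead animal 3 lay among the controls. The change was -1.23 ± 0.43, as large as that of PEX11A but with a wider error (95% interval -2.15 to -0.31), and it did not pass (limma, adjusted p = 0.104). Without brain-dead animal 5 it was -0.83.

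**Figure D3:**
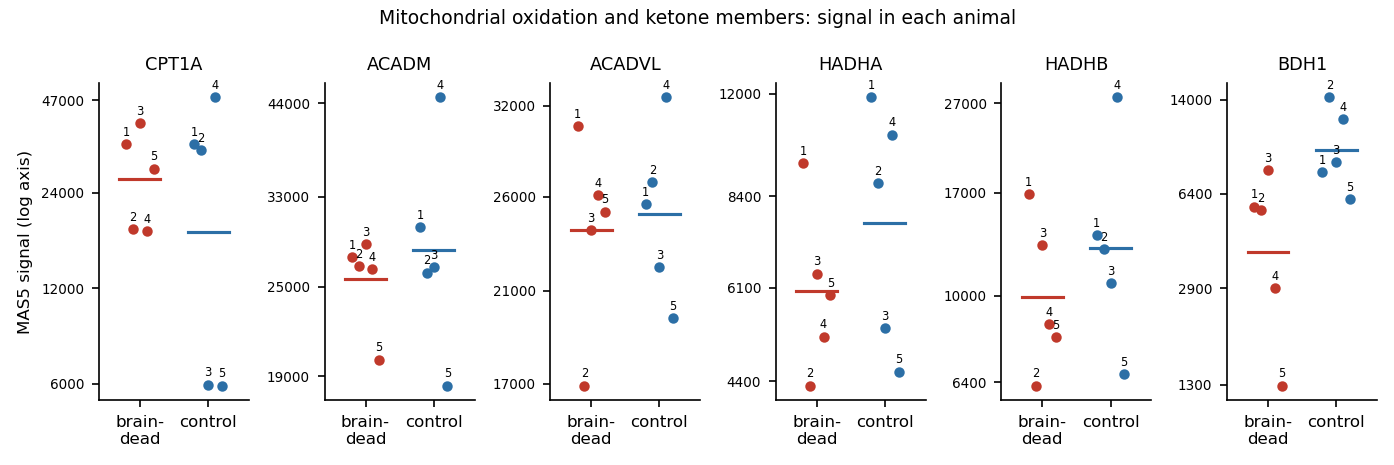
MAS5 signal on log axes in each of the 5 brain-dead and 5 control animals for CPT1A, 4 mitochondrial oxidation genes and BDH1, with animals numbered and a bar at the geometric mean. The groups overlap for all 6, and CPT1A has control animals 3 and 5 at 5965 and 5921, below every brain-dead animal.

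By compartment, 1 of 13 genes of mitochondrial oxidation and electron transfer fell, with a median change of -0.42, and 1 of 4 of peroxisomal oxidation, with a median of -0.80. The 5 synthetases and carnitine transferases had 2 falls and a median of -0.65, and the 7 peroxins 1 fall and a median of -0.09. With 4 genes in the peroxisomal group these medians are a description and were not compared by a test.

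Animals differed in how far the genes moved. Relative to the control mean of each gene, the median deviation over the 30 genes was -0.14, -0.61, -0.35, -0.43 and -0.82 on the log2 scale in brain-dead animals 1 to 5, against 0.11, 0.16, -0.12, 0.23 and -0.25 in controls 1 to 5. Brain-dead animal 5 was lowest and brain-dead animal 1 lay within the range of the controls. The median over all genes lay between -0.05 and 0.06 on every array. Of the 23 measured genes other than peroxins, 9 had their lowest signal of all 10 arrays in brain-dead animal 5. Control animal 4 had the highest control signal in 8 of the 13 mitochondrial genes.

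**Figure D4:**
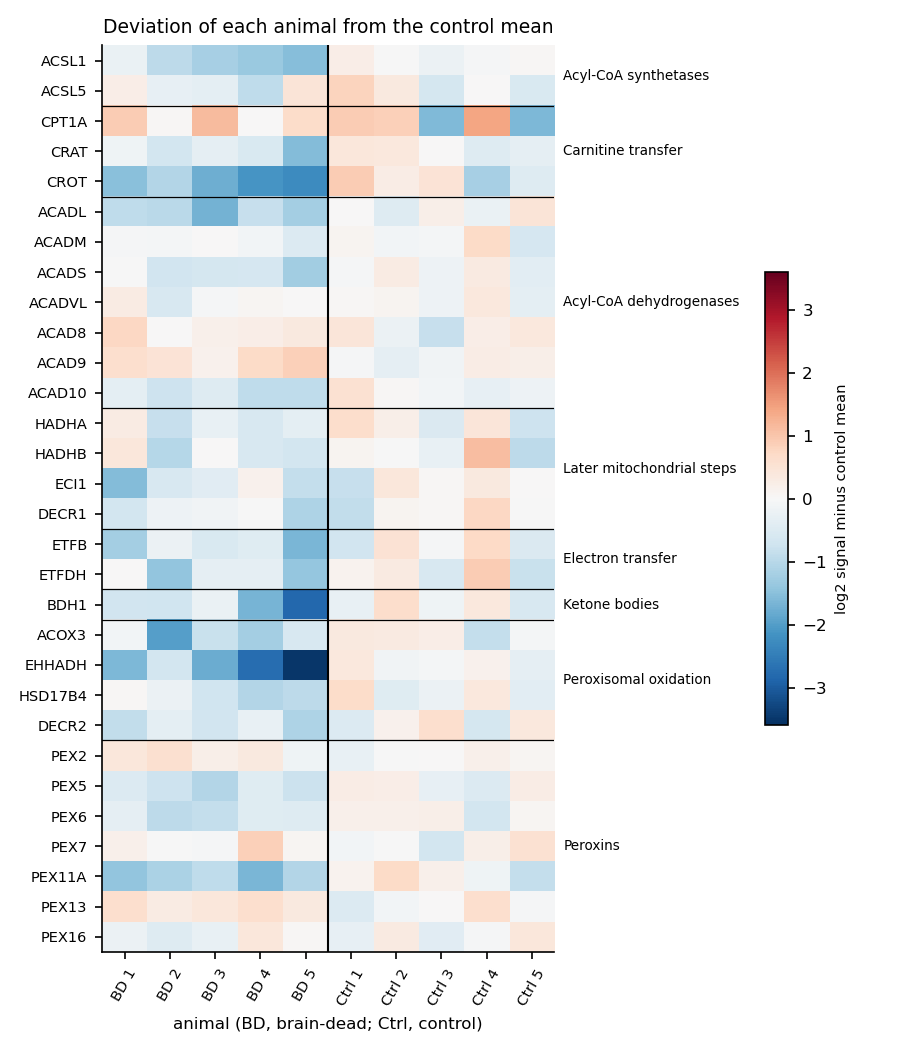
Log2 signal of the 30 genes in each animal minus the gene's mean over the 5 controls, brain-dead animals (BD) left and controls (Ctrl) right, blue for lower. EHHADH and CROT are blue in all 5 brain-dead animals, and CPT1A is blue in control animals 3 and 5 alone.

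Where a gene had several probe sets past the filter, they were of one sign for 14 of 18 genes. Signs differed for CRAT, ACAD8, HADHA and PEX7, none of which passed with any probe set. The group-by-sex interaction passed for 0 of the 30 genes, and 0 had an unadjusted p under 0.05 (limma, lowest adjusted p = 1.00, against 1015 of 26653 probe sets at that unadjusted p and 0.00% called). With 2 or 3 animals of a sex per group this has little power. EHHADH had a change of -1.20 in females and -2.58 in males.

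Markers of liver cell types were measured on the same arrays. Of 5 hepatocyte markers measured none passed in limma (2 at an unadjusted p under 0.05), though all 5 changes lay below 0 (median -0.20), and their summed signal was 411493 to 477561 in brain-dead and 475123 to 589461 in control animals. Of 5 neutrophil markers 2 rose, S100A8 (3.85) and S100A9 (3.54), while CSF3R (0.76), FCGR3 (0.05) and ELANE (-0.38) did not pass. The summed signal over 7 markers, with S100A12 and MPO below the filter, was 10088 to 57240 in brain-dead and 1893 to 6696 in control animals. In brain-dead animal 5, which had the highest sum, S100A8 gave 23242 and S100A9 32408. None of 6 macrophage and 6 endothelial markers passed (0 and 2 at an unadjusted p under 0.05). Muscle and erythroid markers were also measured, and none passed. The summed signal of 4 muscle markers was 432 to 658 in brain-dead and 342 to 5699 in control animals. That of 4 erythroid markers was 3080 to 21429 and 4987 to 61431. Control animal 4 gave the highest sum of both lists, with TNNT2 (muscle, below the filter) at 3505 and HBA (erythroid) at 55256. These counts take the brightest probe set of each gene. Among the others, a second C1QA probe set (macrophage) was lower, at -1.31 ± 0.35, where the brightest gave -0.33 ± 0.27 (limma, adjusted p = 0.0444 and 0.504). Of 5 further SERPINA1 probe sets (hepatocyte) 1 was higher, at 1.17 ± 0.32, where the brightest gave -0.16 ± 0.13 (limma, adjusted p = 0.0464 and 0.504). The part of these shifts in the results was not tested, and in whole liver fewer hepatocytes and less RNA per hepatocyte cannot be told apart.

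Companion genes were read from lists written beside the set. Of 18 genes measured on a list of other peroxisomal genes, of 36 listed, 7 fell and none rose, with a median of -0.84. Of all 9835 genes 3.87% were lower and 2.90% higher. The 7 include ABCD4, which was listed by its family name and is a lysosomal protein. Of 11 citric acid cycle genes, of 19 listed, none passed in limma (1 at an unadjusted p under 0.05), with a median of -0.15. The difference between these lists was not tested. PIPOX, the peroxisomal sarcosine and pipecolic acid oxidase, had signals of 3590, 3206, 2979, 2069 and 1266 in brain-dead animals 1 to 5, against 13111, 14955, 11495, 7503 and 9490 in controls, with no overlap (-2.16 ± 0.30, limma, adjusted p = 0.00338). HACL1, the lyase that ends the shortening of branched chains by 1 carbon (alpha-oxidation), had 6598, 5146, 5448, 4068 and 2745 in brain-dead animals, against 13098, 12408, 11934, 14500 and 10065 in controls (-1.42 ± 0.24, adjusted p = 0.00744). PECR, a peroxisomal enoyl-CoA reductase, changed by -0.94 ± 0.19 (adjusted p = 0.0169). A second PECR probe set gave -0.76 ± 0.24 and did not pass, with overlapping groups (limma, adjusted p = 0.0711). By the brightest probe set of each, these 3 genes kept their calls under all 23 alternatives.

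The other 4 falls of that list were less firm. PHYH, which opens alpha-oxidation, changed by -1.04 ± 0.27 and lost its call under 13 of 23 alternatives (limma, adjusted p up to 0.0902). AMACR, the racemase that readies branched chains for beta-oxidation, changed by -1.56 ± 0.35 and lost its call under 5 (up to 0.0818). Its second probe set gave -0.77 ± 0.36 and did not pass (limma, adjusted p = 0.211). PEX11G, a relative of PEX11A, changed by -0.85 ± 0.21 and lost its call under 10 of 22 (up to 0.0857). ABCD4, at -1.02 ± 0.27, lost it under 11 of 23 (up to 0.104), and despite its family name it is a lysosomal protein of cobalamin transport. A second ABCD4 probe set had a change of the other sign, 0.21 ± 0.32 (limma, adjusted p = 0.731). Catalase (CAT), the peroxisomal enzyme that breaks down hydrogen peroxide, gave -1.93 ± 0.58 and did not pass (adjusted p = 0.0643).

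**Figure D5:**
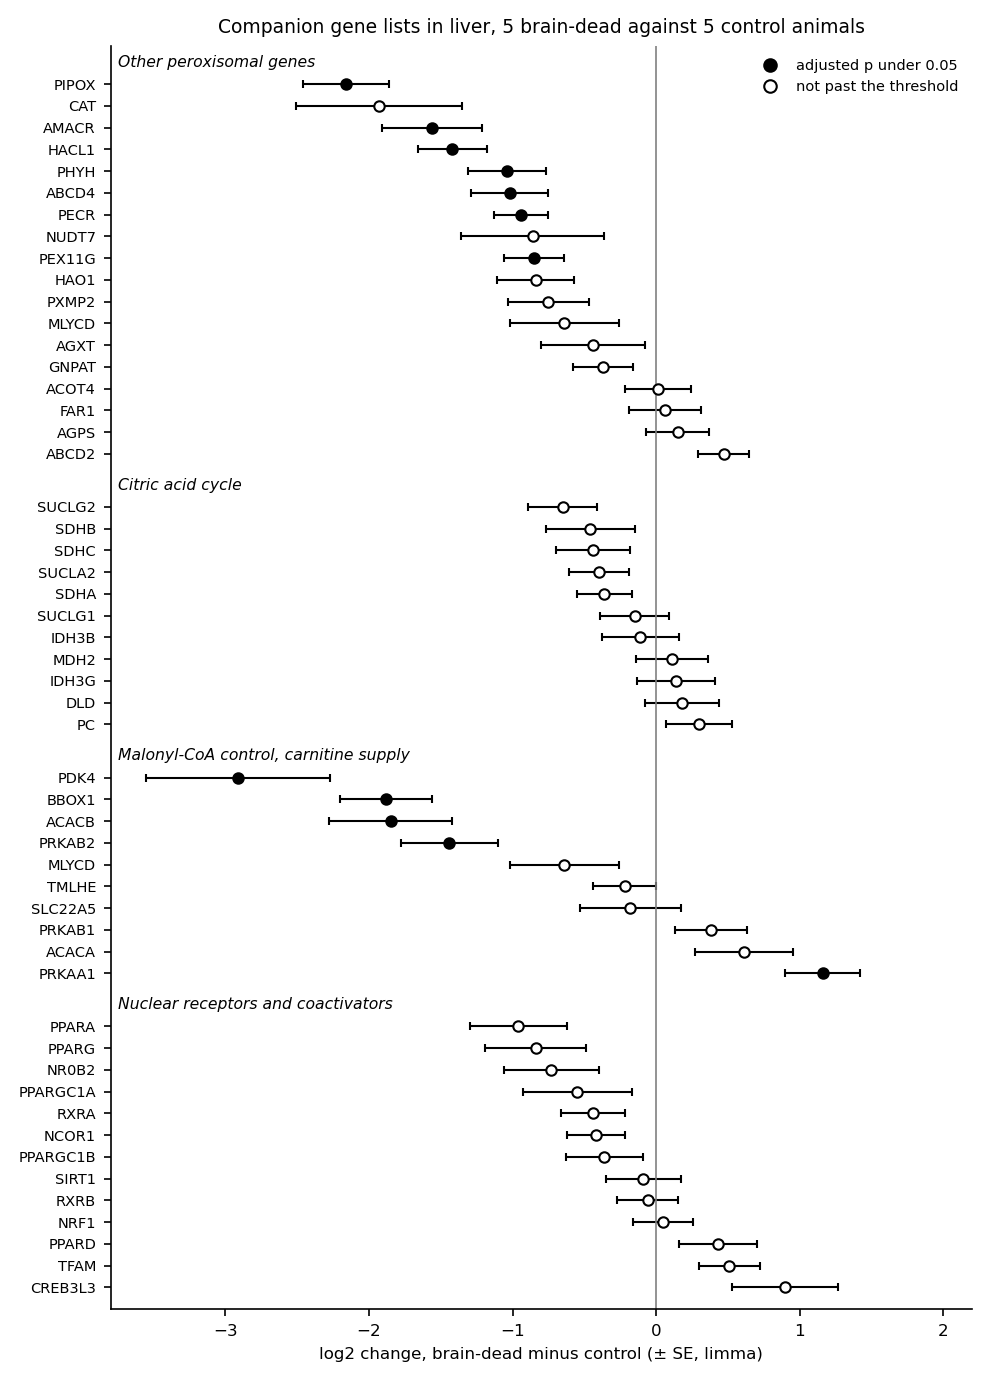
Log2 change, brain-dead minus control, with its standard error from limma (5 animals per group) for 4 companion lists. Filled points passed an adjusted p of 0.05: 7 of 18 on the list of other peroxisomal genes and 0 of 11 citric acid cycle genes. So did 5 of 10 genes of malonyl-CoA control and carnitine supply and 0 of 13 nuclear receptors and coactivators. The 7 include ABCD4, a lysosomal protein.

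Genes that set the supply of carnitine and the brake on CPT1A were also measured: of 10, of 15 listed, 4 fell and 1 rose. BBOX1, the last enzyme of carnitine synthesis, had signals of 2503, 4426, 1746, 2079 and 1090 in brain-dead animals 1 to 5, against 7770, 10800, 6127, 6655 and 8713 in controls, with no overlap (-1.88 ± 0.32, limma, adjusted p = 0.00770), a call that held under all 23 alternatives. ACACB, which makes the malonyl-CoA that inhibits CPT1, had 2889, 2897, 879, 986 and 1061 in brain-dead animals, against 5393, 3671, 7140, 3066 and 10960 in controls (-1.85 ± 0.43, adjusted p = 0.0257). Its call was lost under 6 of 23 alternatives (limma, adjusted p up to 0.0776). A second ACACB probe set gave -1.38 ± 0.42 and did not pass, with overlapping groups (limma, adjusted p = 0.0695). The AMP-activated kinase, which inhibits ACACB by phosphorylation, had its subunits on both sides: PRKAB2 changed by -1.44 ± 0.34 (adjusted p = 0.0281) and PRKAA1 by 1.16 ± 0.26 (adjusted p = 0.0231). PRKAB2 failed to pass under 7 of 23 alternatives and PRKAA1 under 6 (limma, adjusted p up to 0.0725 and 0.0612). Each had a dimmer probe set that did not pass, at -0.82 ± 0.28 and 0.71 ± 0.22 (limma, adjusted p = 0.0995 and 0.0718). Their remaining probe sets past the filter passed in the same direction. PDK4, which spares pyruvate when fatty acids are burned, also fell (-2.91 ± 0.64), and lost its call under 4 of 23 (up to 0.0602).

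Of 13 nuclear receptors and coactivators measured, of 17 listed, none passed in limma (5 at an unadjusted p under 0.05, 3 of them lower). Of all 9835 genes, 2468 had such an unadjusted p. PPARA had signals of 2761, 1807, 1685, 1744 and 1566 in brain-dead animals 1 to 5, against 8137, 5048, 2462, 3025 and 2093 in controls. The groups overlapped, with control animals 1 and 2 above all others, and the change was -0.96 ± 0.34 (limma, adjusted p = 0.112). Its coactivator PPARGC1A averaged 2636 ± 848 in brain-dead and 4226 ± 2404 in control animals (-0.55 ± 0.38, adjusted p = 0.403). Of 11 other known PPARA targets, of 18 listed, 2 fell, PDK4 and the lipid droplet protein PLIN5 (-2.48 ± 0.65, adjusted p = 0.0409), and the median was -0.29. PLIN5 is dim, with a mean of 161 ± 214 in brain-dead animals and 553 ± 243 in controls, and lost its call under 9 of 22 alternatives (limma, adjusted p up to 0.101). It lay above the array median in every control but in brain-dead animal 1 alone, so the filter kept it through the controls. ANGPTL4, an inhibitor of lipoprotein lipase and a PPARA target, gave 0.77 ± 0.49 and did not pass (adjusted p = 0.360). The probe set of CS, the citrate synthase of the citric acid cycle list, lay below the filter, with a mean of 38.6 ± 37.4 in brain-dead animals and 21.2 ± 4.89 in controls.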

How the data were processed

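Per the labels' protocols, liver RNA was extracted with Trizol, purified on columns and biotin-labelled by amplification. The authors deposited 1 signal intensity per probe set on a linear scale, made with MAS5 per the submitters' processing notes, which name no version. Each array had a 2% trimmed mean of 1000 in the deposited values, and array medians lay between 175 and 227. Precision is limited by there being 10 arrays.

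Signals were put on a log2 scale with no pseudocount or further normalization. After 99 control probe sets were left out, those above their array's median on at least 5 of 10 arrays were kept (26653). Of the 54 probe sets of the genes described, 50 were kept. Names came from the platform annotation of the probe sets: 24956 had 1 symbol and 361 several. A gene stood by its kept probe set of highest mean. Groups were compared with limma (version 3.58.1, under R 4.3.3) using lmFit and a trended eBayes with group as the term, Benjamini-Hochberg adjusted over all probe sets kept, at a threshold of 0.05. Errors of log2 changes are limma's standard errors, and those of mean signals are SD. The fit was tested on simulated data. Further software was pandas 2.3.3 and matplotlib 3.10.9 under Python 3.11.15.

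Members, lists and tests were chosen with earlier results of these data known. Values per animal were given for genes past the threshold and for others of a preset list, and the rest by summary. Alternatives were quantile normalization, median centring, a pseudocount of 16 or 64, dropping the filter, a filter at the 75th percentile, sex as a covariate, sex plus age (9 animals), a replicate block, eBayes without trend or robust, array weights, another probe set rule, leaving out each array, and leaving out both arrays numbered 1. Sequences were not used here. Each animal gave 1 array, so p-values set a change against a spread in which animal and technical variation cannot be told apart.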

Additional observations from a re-analysis of the deposited data

Results flagged for a closer look

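In 3 of 60 groups of 5 animals (30 genes, both groups, log2 scale) 1 animal stood far from the others by Dixon's criterion, which chance meets in about 1 group in 20. ACADM was 19980 in brain-dead animal 5, against 26391 to 28539 in the other brain-dead animals. PEX7 was 1876 in brain-dead animal 4, against 1008 to 1179 in the others of its group. PEX6 was 1045 in control animal 4, against 1713 to 1917 in the other controls.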

How the results depend on the processing

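The median change over the 30 genes stayed between -0.64 and -0.48 under its 24 alternatives, and no gene of the set passed as higher under any of 23. The number that fell, 5, was 3 with no filter, 2 with sex and age in the model, 1 without both arrays numbered 1 and 2 to 8 when single arrays were left out. Over all probe sets, the 1627 calls became 1056 with no filter, 1035 with sex and age, 674 without both arrays numbered 1 and 660 to 2289 when single arrays were left out. Some changes near 0 turned in sign: ACADVL became 0.04 with quantile normalization and 0.02 with centring, and ranged from -0.14 to 0.07 without single arrays, as did ACSL5 (-0.33 to 0.03), ACADM (-0.28 to 0.04) and PEX16 (-0.22 to 0.01). Replicate numbers were not taken as pairs, since no label ties them and the rule set asked for a correlation above 0.1 in every pair. Deviations of same-numbered animals correlated above 0.1 for 3 of 5 pairs (0.38 for number 1), and at 0.0643 and 0.0889 for numbers 2 and 4. Of 5 brain-dead animals 2 matched their own number best. On principal component 2 both arrays numbered 1 lay apart, at 69.6 (control) and 72.1 (brain-dead), with the next at 26.5. What the numbers share was not tested. With the replicate block 9 of the 30 genes fell, the 5 and also ACAD10, ECI1, ETFB and BDH1 (limma, adjusted p = 0.0390, 0.0454, 0.0196 and 0.0424), PPARA passed as lower (0.0298), and 3013 probe sets were called. The cause of these shifts was not tested, and the fits without single arrays also have fewer samples. Values of dim probe sets such as PEX11A lie near the array medians, and the part of background in their changes was not tested.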

Other observations

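Genes of fatty acid uptake and binding were measured for 9 of 11 listed, and 1 fell, with a median change of -0.76. DBI, the acyl-CoA-binding protein of the cytosol, averaged 28545 ± 7413 in brain-dead animals and 60226 ± 18124 in controls (SD, n = 5 each). It changed by -1.06 ± 0.26 (limma, Benjamini-Hochberg adjusted p = 0.0303), and lost its call under 8 of 23 alternatives (up to 0.0885). A second DBI probe set gave -0.71 ± 0.32 and did not pass, with overlapping groups (limma, adjusted p = 0.192). The liver fatty acid transporter SLC27A5 had a change of -1.31 ± 0.48 and the scavenger receptor CD36 one of -1.05 ± 0.31, neither past the threshold (limma, adjusted p = 0.120 and 0.0629). Of 3 further ketone body genes measured, of 9 listed, 1 fell: BDH2, a cytosolic short-chain dehydrogenase, at -1.02 ± 0.25 with a second probe set at -1.06 (limma, adjusted p = 0.0292 and 0.0237). Its call was lost under 8 of 23 alternatives (up to 0.0775).

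Of 12 thioesterases and other mitochondrial acyl-CoA enzymes measured, of 25 listed, none fell and 1 rose. HIBCH, a hydrolase of valine breakdown, had signals of 7118, 4792, 5935, 9704 and 12052 in brain-dead animals 1 to 5, against 2928, 2477, 1415, 3067 and 2620 in controls, with no overlap. Its change was 1.63 ± 0.29 (limma, adjusted p = 0.00911), a call that held under all 23 alternatives. AGPS, a peroxisomal enzyme of ether lipid synthesis singled out after its values were seen, had 2 probe sets that rose, by 1.00 and 0.92, while its brightest gave 0.15 ± 0.22 and did not pass (limma, adjusted p = 0.0139, 0.0190 and 0.730). ACBD5, an acyl-CoA-binding protein of the peroxisomal membrane also singled out afterwards, had one probe set that fell (-1.26 ± 0.34) and a brighter one at -0.15 ± 0.22 (limma, adjusted p = 0.0445 and 0.713).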
